A study of Mus musculus with 4 samples.

Results

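The carbonic anhydrases are a family of enzymes that interconvert carbon dioxide and bicarbonate, releasing or taking up a proton. The expression of 10 of their genes was compared between odontoblasts, the cells of the tooth pulp that deposit dentin, and osteoblasts, the cells that deposit bone. Members were the probes whose gene name in the array files was Car2, Car3, Car4, Car5b, Car6, Car8, Car9, Car11, Car12 or Car13, which gave 12 probes of 10 genes among 55681 probes. The family was chosen because Car2 had one of the ratios lying farthest toward the Cy3 channel, so the ratios of its genes are given as a description and without p-values. All 12 probes passed the filter on dim probes, and the 10 genes stood in the fit among 19713 named genes.

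Mice of the strain C57BL/6 (named in the labels for the odontoblasts) were 2 weeks old and carried EGFP driven by the 2.3 kb type I collagen promoter. Donor-matched dental pulp and calvaria (skull bone) were digested with enzymes, and the green cells of each were sorted. The sort therefore took cells in which that collagen promoter was active, in both tissues, and any cell with promoter activity could pass it. On each of 4 two-colour arrays the odontoblast RNA carried Cy5 and the osteoblast RNA Cy3, per the labels, without a dye swap. Ratios are log2 of Cy5 over Cy3, so a negative ratio goes with a brighter Cy3 (osteoblast by its label) channel. The number of animals per array is not given, and the spread between arrays is all that the errors cover. In bulk RNA, fewer cells of a type and less RNA per cell cannot be told apart.

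The defining markers of the 2 cell types opposed the dye labels. Dspp, the dentin matrix gene of odontoblasts, had ratios of -2.98, -1.79, -1.80 and -1.21 on arrays 1 to 4, and Ifitm5, a bone-restricted membrane protein gene of osteoblasts, had 6.52, 4.48, 3.89 and 5.32. Nes, a filament gene of odontoblasts, had -3.07, -1.05, -1.84 and -2.04, and Col1a2, a type I collagen chain, had a mean of 2.79. Of the odontoblast markers 3 of 9 measured were higher in Cy3 and 0 in Cy5 (median -1.95). These were the Wnt ligand Wnt10a (-5.91), the growth factor Bmp7 (-4.57) and the transcription factor Sall1 (-2.99). Dspp and Nes were not called (limma adjusted p = 0.0603 and 0.0691). At an unadjusted p under 0.05, beside 21.2% of all named genes, 6 odontoblast markers lay toward Cy3 and 1 toward Cy5. The latter was Smpd3, with a mean of 1.41. Phex and Cpne7 also had positive means, 0.38 and 0.29. Of the osteoblast markers 4 of 11 were higher in Cy5 and 0 in Cy3 (median 2.65), among them the parathyroid hormone receptor Pth1r (4.74) and the mineralization phosphatase Phospho1 (3.62). At an unadjusted p under 0.05 were 8 of the 11, all toward Cy5. The lowest means of that list were 0.02 for Sp7 and 0.05 for Alpl. Channels are therefore named by dye and label here, and exchanged labels would turn every sign below. In the whole fit, 612 of 37356 features (1.64%) and 418 of 19713 named genes (2.12%) had a limma adjusted p under 0.05, with 249 higher in Cy5 (1.26%) and 169 higher in Cy3 (0.857%). Probes well above background made up 67.8% to 80.9% of an array in Cy3 and 75.5% to 85.2% in Cy5, with array 3 lowest in both. Leaving out array 1 or array 2 left 0 genes called by limma. The genes with an unadjusted p under 0.05 then numbered 3171 and 3401, and 4182 with all arrays kept. No call named in the text was kept without either of those arrays. Without array 4, the calls of Ifitm5, Col1a2, Sall1, Pth1r, Phospho1 and Myl1 were lost too, and without array 3 those of Pth1r and Phospho1.

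Bone and tooth cells use these enzymes in several compartments. Car2, Car3 and Car13 are cytosolic; Car4, Car9 and Car12 sit in the cell membrane with the active site outside; Car6 is secreted and best known from saliva; and Car5b works in mitochondria. Car8 and Car11 are carbonic anhydrase-related proteins without catalytic activity. Car2 is best known in the skeleton from osteoclasts, where it supplies protons for the dissolution of bone mineral, and its loss in people causes osteopetrosis.

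The array reads each transcript through probes of 60 bases. A stretch of 30 bases is shown for the probes on which the results turn, 5′ to 3′ as designed in the array files, with capitals marking a polyadenylation signal (AATAAA or ATTAAA) where the stretch holds one.
Car2 (mm9 chr3:14900206-14900265, plus strand), bases 1 to 30 of the probe: cctctcatccgttgtgcttactaacaaaat
Car3 (mm9 chr3:14871781-14871840, plus strand), bases 1 to 30: acatgcaaccgcagtgccttttgacatgat
Car13 (mm9 chr3:14662332-14662391, plus strand), bases 31 to 60: cacccATTAAAaagatgaaccacgtcttgc
Car12 (mm9 chr9:66614542-66614601, plus strand), bases 1 to 30: gccactgtgataattgtctgctcagcattt
Car4, upstream probe (mm9 chr11:84777667-84777726, plus strand), bases 1 to 30: tgcacctgcactggtcaaatgggaatgaca
Car4, downstream probe (mm9 chr11:84779487-84779546, plus strand), bases 31 to 60: aAATAAAatatggatatgtttttagaaaaa
The first 4 stretches belong to the genes with the clearest ratio (Car2), its neighbours on the chromosome (Car3, Car13) and the gene that differed most between arrays (Car12). The 2 Car4 stretches belong to probes of 1 gene that gave different values. The letters AATAAA occur on the probe strand in 10.1% of all 55681 probes (13.5% counting both strands) and ATTAAA in 3.95% (6.34%). No family probe shared a run of 20 bases, on either strand, with a probe of another gene name on the array.

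Car2 stood apart from the other carbonic anhydrase genes. Its ratios were -5.03, -6.18, -5.30 and -5.77 on arrays 1 to 4, a mean of -5.57 ± 0.25 (SE, n = 4), or 47.4-fold more signal in Cy3. All 4 arrays lay within 1.15 of each other. The lowest single value of another member was -4.80, that of Car12 on array 3. The mean spot signal in Cy3, in scanner units before normalization, was 4694, 14119, 5002 and 10997. In Cy5 it was 232, 370, 298 and 451, which was still well above the local background of 55 to 61 on every array. Both channels therefore measured the gene, and its ratio is not a lower bound. Car2 ranked 3 among the named genes by its ratio toward Cy3. That rank is what chose the family.

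**Figure D1:**
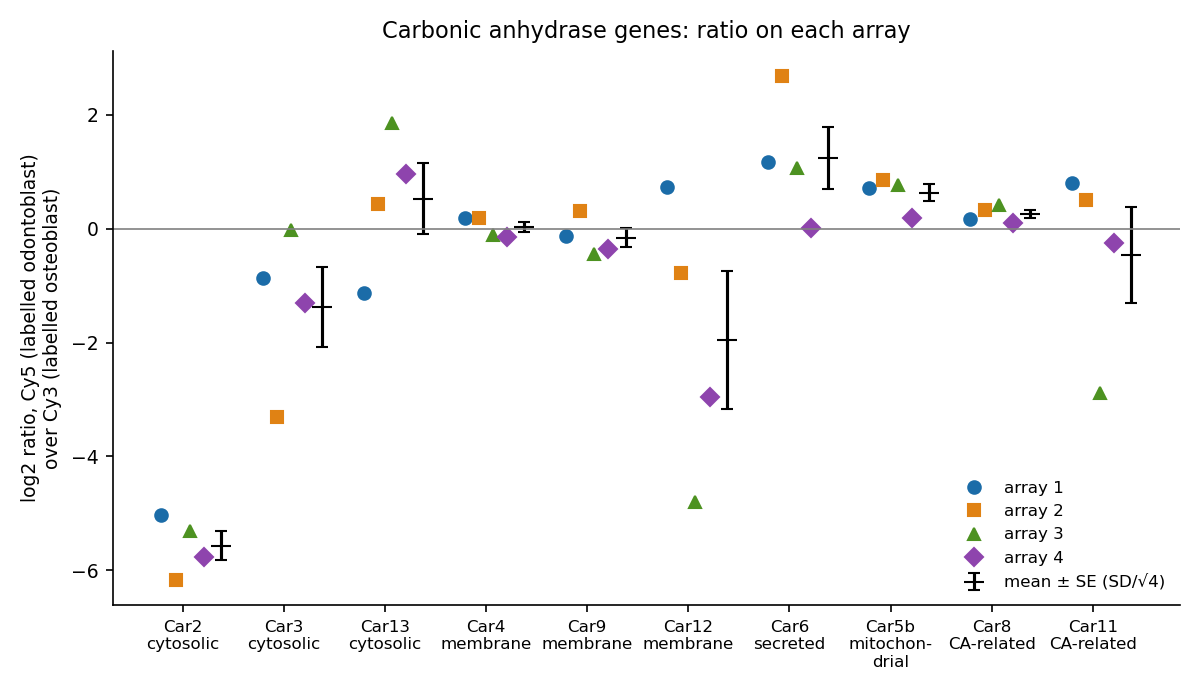
Log2 ratio of Cy5 (labelled odontoblast) over Cy3 (labelled osteoblast) for the brightest probe of each carbonic anhydrase gene. Coloured symbols are the 4 arrays, and black bars are the mean ± SE. Car2 lies at -5.03 to -6.18, while Car12 spreads from 0.73 to -4.80.

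The genes whose 4 array ratios lay nearest to those of Car2 were Wnt10a, Nts and Serpinb2. They were sought among the 15988 named genes that every array measured well above background in Cy3 and in Cy5, by the root mean square difference over the 4 arrays. That difference was 0.56 for Wnt10a, needed for tooth formation, with ratios of -5.91, -6.30, -5.04 and -6.38. It was 0.77 for Nts, the gene of the neuropeptide neurotensin, and 0.80 for Serpinb2, a protease inhibitor. All 3 lay toward Cy3 on all arrays. With 4 arrays this likeness rests mainly on the level of the ratio.

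Car2 is also made in cells that the sort was not aimed at, and markers of those cells are given beside it. Osteoclast markers had 0 of 10 measured genes called by limma and 0 at an unadjusted p under 0.05, with mean ratios from -1.36 (Mmp9) to 0.76 (Ctsk, the osteoclast protease cathepsin K). Their summed normalized level was 14.5 to 14.8 (log2) in Cy3 and 14.4 to 15.7 in Cy5. Acp5, the acid phosphatase that marks osteoclasts, had a mean of 0.26. Erythroid markers had 0 of 6 measured genes called by limma and 2 at an unadjusted p under 0.05, 1 in each direction, with summed levels of 11.5 to 12.0 in Cy3 and 11.8 to 12.4 in Cy5. Markers of dental epithelium, whose ameloblasts are known to make Car2, had 2 of 9 measured genes higher in Cy3. Odam (-5.00 ± 0.26 SE, limma adjusted p = 0.00614) and Ambn (-3.05 ± 0.32 SE, limma adjusted p = 0.0234), both enamel-related, were the 2. Their adjusted p-values were 0.0535 and 0.100 without array 1 and 0.0552 and 0.112 without array 2, and that of Ambn was 0.105 without array 4. Summed levels of the epithelial list were 12.7 to 13.7 in Cy3 and 11.1 to 11.6 in Cy5. In all, 5 of the 9 had an unadjusted p under 0.05, all toward Cy3, beside 21.2% of all named genes, and the list's median was -0.95. The 7 that were not called had means of -1.65 for the junction gene Perp, -1.58 and -0.95 for the enamel genes Enam and Klk4, -0.14 and -0.10 for the keratin genes Krt5 and Krt14, -0.03 for the adhesion gene Epcam and 0.26 for the amelogenin gene Amelx. Of the listed markers, 10 of 12 for osteoclasts, 6 of 11 erythroid and 9 of 12 epithelial were measured, and the others have no value. Each measured marker was well above background on at least 1 array in both channels. The filter on dim probes had already required this of 1 channel. Of the macrophage and leukocyte markers 2 of 10 measured were higher in Cy5 and 0 in Cy3, beside 1.26% and 0.857% of all named genes. In all, 6 of the 10 had an unadjusted p under 0.05, all toward Cy5, beside 21.2%. Means ran from -0.39 to 4.42 over the list, with a median of 1.35. The called genes were the lysozyme gene Lyz2 at 4.42 (limma adjusted p = 0.0279) and the lysosomal membrane gene Laptm5 at 2.93 (limma adjusted p = 0.0189), both calls lost with each array left out in turn (adjusted p from 0.0541 to 0.129). The part of these cells in the Car2 ratio was not tested.

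The genes beside Car2 on chromosome 3 did not share its ratio. In the RefSeq table Car13, Car1, Car3 and Car2 follow one another there, and on mm9 the Car2 probe lies 28.4 kb from the Car3 probe and 238 kb from the Car13 probe. Car3, an enzyme of low activity abundant in muscle and fat, had ratios of -0.87, -3.31, -0.02 and -1.30, a mean of -1.37 ± 0.70 (SE, n = 4). It lay toward Cy3 on all 4 arrays, but by almost nothing on array 3. Its Cy3 signal was 2544, 2910, 1620 and 5379, and its Cy5 signal 2361, 565, 3913 and 5353, so array 2 stood low in Cy5. Without array 2 its mean ratio was -0.73. Markers of muscle and fat, the tissues richest in Car3, are given beside it. Summed levels (log2) of the muscle markers were 13.03 to 14.04 in Cy3 and 12.82 to 13.62 in Cy5. Of these markers 1 of 6 measured was higher in Cy5 and 0 in Cy3, beside 1.26% and 0.857% of all named genes. The same 1 alone had an unadjusted p under 0.05, beside 21.2%. That gene was Myl1, a myosin light chain, at 3.19 (limma adjusted p = 0.00933), on a probe well above background in Cy3 on only 1 array. The software's log ratio, for which the brightest probe was chosen anew, gave 1.24 (limma adjusted p = 0.120). With only probes well above background throughout, another Myl1 probe stood for the gene, at 0.76 (limma adjusted p = 0.118). Over all alternatives the Myl1 ratio ran from 0.76 to 4.32. The median of the muscle list was -0.21, and means of its other genes ran from -0.61 (Tnnt3) to 0.44 (Ckm). Summed levels of the fat markers were 12.8 to 13.5 in Cy3 and 12.9 to 14.7 in Cy5. Among them 1 of 8 measured was higher in Cy5 and 0 in Cy3, beside the same 1.26% and 0.857%. Again the same 1 alone had an unadjusted p under 0.05, beside 21.2%. That gene was Lpl, a lipase that frees fatty acids, at 2.54 (limma adjusted p = 0.0213), a call lost with each array left out in turn (adjusted p from 0.0561 to 0.108). The median of the fat list was -0.14, and means of its other genes ran from -0.45 (Pparg) to 0.20 (Fabp4). Fabp4 itself ran from -4.12 on array 1 to 2.72 on array 2. The part of muscle or fat cells in the Car3 ratio was not tested.

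Car13, a cytosolic enzyme found in many tissues, had ratios of -1.12, 0.43, 1.85 and 0.95, a mean of 0.53 ± 0.62 (SE, n = 4). Array 1 lay toward Cy3 and the other 3 toward Cy5. Without array 1 the mean was 1.08, and without array 3 it was 0.09. Within each array, the ratio of Car2 minus that of Car3 was -5.29 to -2.87, and minus that of Car13 it was -7.15 to -3.91. The pair Car3 and Car13 changed order, with Car3 minus Car13 at 0.25 on array 1 and at -3.74 to -1.86 on the rest. Car1, the red cell enzyme between them, lay close to 0 on its brighter probe (-0.21 to 0.20). Its second probe, 2685 bases away on the genome (mm9), ranged from -1.60 on array 3 to 0.26 on array 1.

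**Figure D2:**
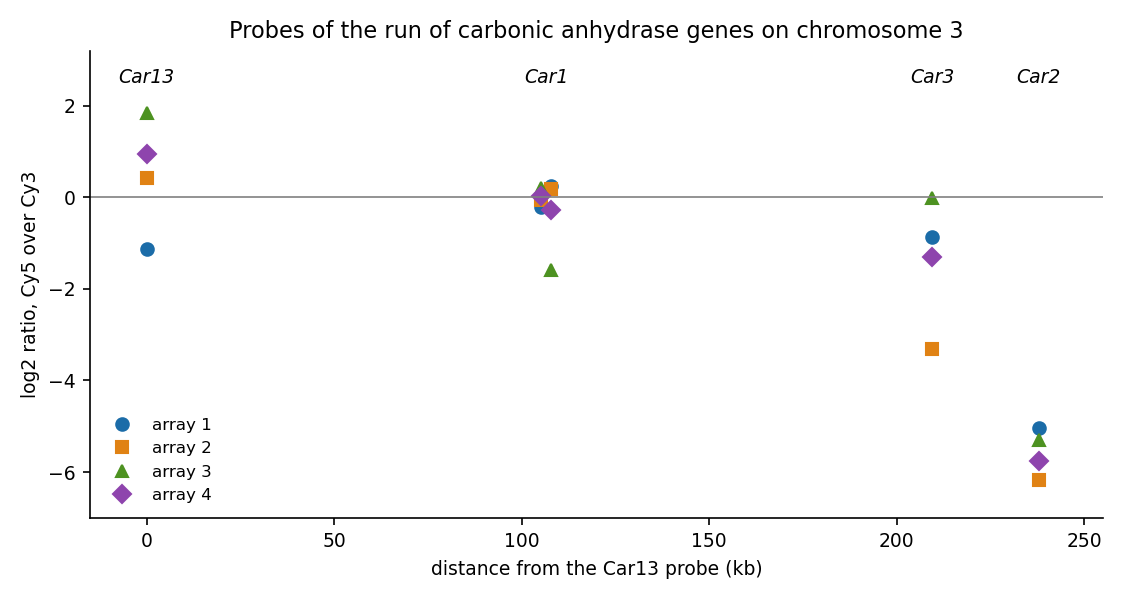
Log2 ratio of Cy5 over Cy3 against distance in kb from the Car13 probe, for the probes of Car13, Car1 (2 probes), Car3 and Car2 on chromosome 3. Each symbol is 1 of 4 arrays. Car2, 28.4 kb from Car3, is the only gene of the run with all arrays below -5.

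Of the membrane enzymes, Car12 differed most between arrays. It is a transmembrane enzyme of secretory epithelia and is induced in hypoxia. Its ratios were 0.73, -0.78, -4.80 and -2.96, a mean of -1.95 ± 1.21 (SE, n = 4). Array 1 lay toward Cy5, and arrays 3 and 4 lay far toward Cy3. The Cy3 signal was 573, 208, 4811 and 2265, and the Cy5 signal 1680, 252, 409 and 646. After normalization the Cy3 level spanned 4.57 (log2) and the Cy5 level 2.59. The SD of 2.43 was reached by only 0.654% of named genes, against a median SD of 0.54. Without array 3 the mean ratio was -1.0 and without array 1 it was -2.84, so its size rests on which arrays are read. Array 3 also had the fewest probes well above background in both channels, and the part of that in the Car12 ratio was not tested.

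**Figure D3:**
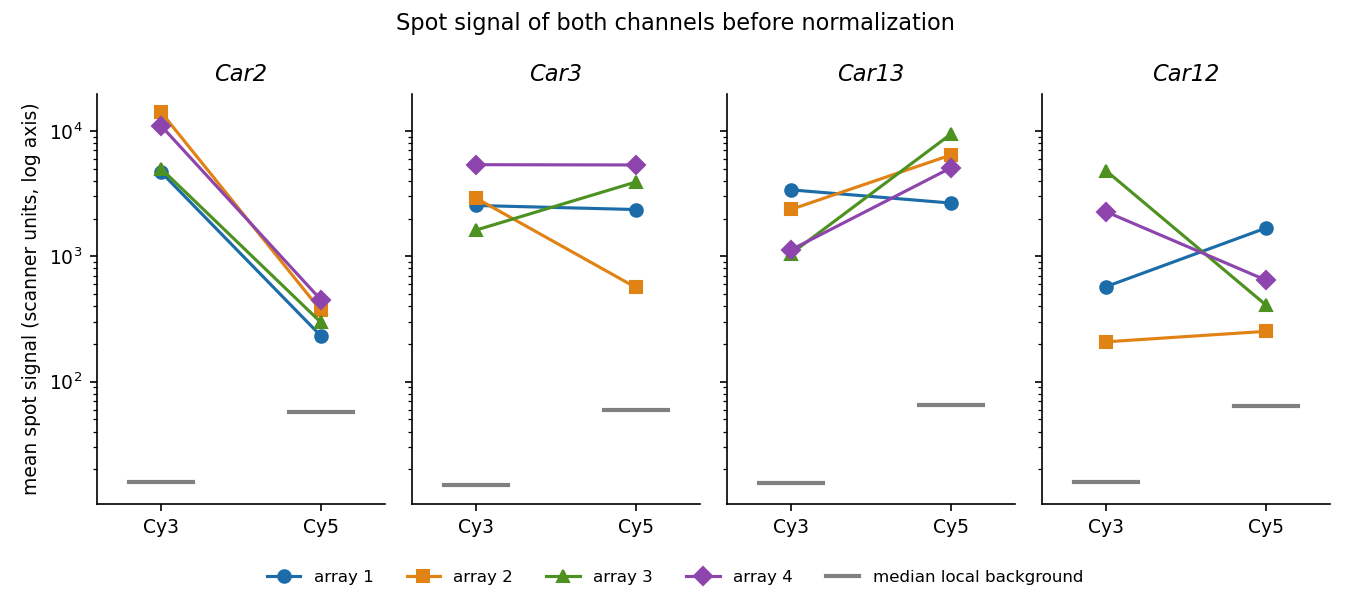
Mean spot signal in scanner units (log axis) in the Cy3 and Cy5 channels of Car2, Car3, Car13 and Car12, before normalization. Lines join the channels of 1 array, and grey bars are the median local background. All 4 Car2 lines fall from Cy3 to Cy5, whereas those of Car12 cross, with Cy3 at 208 on array 2 and 4811 on array 3.

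Car4 and Car9 gave ratios near 0 on their brightest probes. Car4, an enzyme held to the outer membrane by a lipid anchor, had ratios of 0.19, 0.19, -0.11 and -0.14 on its downstream probe, a mean of 0.03 ± 0.09 (SE, n = 4). Signals there were high in both channels, 2210 to 3003 in Cy3 and 5061 to 6020 in Cy5. The upstream probe, whose start lies 1820 bases away on the genome (mm9), had -1.63, -0.05, 0.13 and -0.76. Its signals were 122 to 459 in Cy3 and 258 to 554 in Cy5. Both probes lie in the same reference transcript, and upstream minus downstream was -1.82 on array 1 and -0.61 to 0.23 on the others. Car9, an enzyme of hypoxic cells, had ratios of -0.14, 0.31, -0.45 and -0.36 (mean -0.16 ± 0.17 SE, n = 4), with signals of 798 to 1720 in Cy3 and 1976 to 3061 in Cy5. Neither mean was beyond its spread from 0, and both signs depended on the processing, with Car4 at 0.30 after median centring, -0.27 as the mean of both probes and -0.02 in the software's own log ratio, and Car9 at 0.06 after median centring.

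The secreted and mitochondrial enzymes lay toward Cy5 at low signal. Car6 had ratios of 1.18, 2.68, 1.07 and 0.02, a mean of 1.24 ± 0.55 (SE, n = 4). Its Cy5 signal was 326, 1105, 357 and 86.2, and its Cy3 signal only 46.8 to 63.8 against a local background of 13 to 15. The probe was well above background on 3 arrays in Cy5 and on 2 in Cy3, and array 4 gave signal well above background in neither. Without array 2 the mean was 0.76. Car5b had ratios of 0.72, 0.86, 0.76 and 0.19, a mean of 0.63 ± 0.15 (SE, n = 4). Its Cy5 signal was 152, 240, 159 and 148, and in Cy3 it was well above background on array 4 alone, at 59.9. For dim spots like these the offset of 50 added to both channels shrinks the ratio. With no offset the mean was 1.44 for Car5b and 1.79 for Car6, and in the software's own log ratio it was 1.91 and 2.26.

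Of the inactive relatives, Car8, which binds the receptor that releases calcium from internal stores, had small ratios toward Cy5. Its brighter probe gave 0.18, 0.33, 0.42 and 0.11 (mean 0.26 ± 0.07 SE, n = 4) and was well above background in Cy3 on 2 arrays. The other probe, 1888 bases away, had 0 arrays with Cy3 well above background and 3 with Cy5. On array 1 neither channel was well above background. The lower bound of its ratio, 0.19, averages over all 4 arrays with array 1 included, so it is not strict. Both were dim, with Cy3 signals of 44.0 to 63.1, and the mean of the brighter probe depended on the processing. It was 0.52 with no offset, 1.07 in the software's log ratio and 0.09 after median centring. Car11, a secreted relative best known from brain, had ratios of 0.80, 0.50, -2.89 and -0.26, a mean of -0.46 ± 0.84 (SE, n = 4). Its Cy3 signal was 270, 109, 1972 and 234, so array 3 stood apart there. Without array 3 the mean turned to 0.35.

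**Figure D4:**
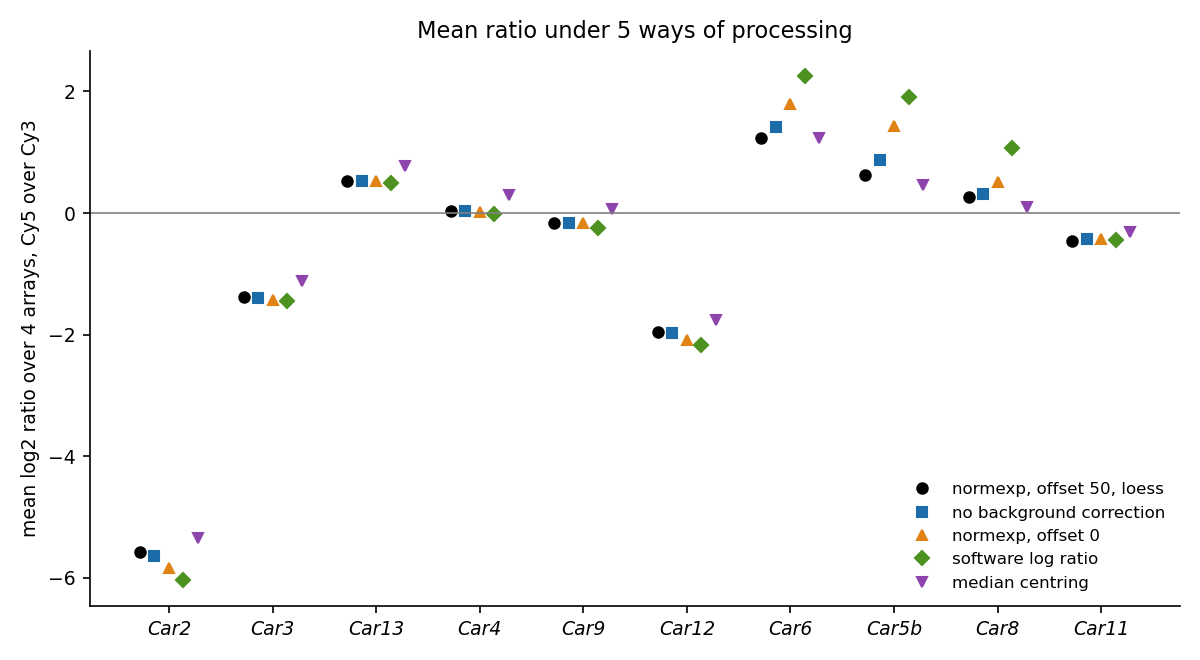
Mean log2 ratio of Cy5 over Cy3 over 4 arrays for each gene under 5 ways of processing, with symbols for each. Car2 stays between -6.04 and -5.34, while the dim genes Car6, Car5b and Car8 lie higher without an offset and in the software's log ratio, up to 2.26, 1.91 and 1.07.

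Read together, the 10 genes did not lie to one side. The mean was negative for 5 and positive for 5, with a median of -0.06 beside 0.01 over all named genes. The median size of the ratio was 0.58 against 0.34 over all named genes. Car2 and Car3 were negative on all 4 arrays, Car6, Car5b and Car8 positive on all 4, and the other 5 mixed. That is 5 of 10 with 1 sign, where 31.4% of named genes had 1 sign. Car3 on array 3 (-0.02) and Car6 on array 4 (0.02) lay almost at 0. In the software's log ratio Car6 on array 4 was -0.27, so its single sign depended on the processing. At an adjusted p under 0.05 limma called Car2 and 0 of the other 9, beside 2.12% of all genes and 1.64% of all features, and 3 of those 9 (Car3, Car5b, Car6) had an unadjusted p under 0.05, beside 21.2%. The family was chosen by the ratio of Car2 on this contrast, so the call of Car2 is no test. The medians and sign counts include Car2, and all these counts are descriptive.

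The remaining 6 carbonic anhydrase genes had 10 probes, 5 of which passed the filter. Car5a, the liver mitochondrial enzyme, and Car10, an inactive relative of brain, did not pass it with any probe. None of the 4 measured genes was called by limma, and 0 had an unadjusted p under 0.05. Car15, a lipid-anchored enzyme, had ratios of 0.09, -0.76, -4.34 and -2.10, the same order of arrays as Car12. It was well above background on 3 arrays in Cy3, where its signal was 48.3, 98.8, 969 and 340, and on 1 in Cy5. Its 4 ratios lay at a root mean square difference of 0.58 from those of Car12. Car14, a transmembrane enzyme, had 0.77, -1.12, -0.64 and 0.34. Car7, a cytosolic enzyme of nerve cells, had -0.02 to -0.41 at signals of 2737 to 3332 in Cy3, with a mean of -0.22 that became 0.06 after median centring.

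Carbonic anhydrases work with transporters that carry bicarbonate and protons across membranes. Among 19 measured bicarbonate and chloride transporters of 21 listed, 1 was higher in Cy3 and 0 in Cy5, beside 0.857% and 1.26% of all named genes. The list's median was -0.04. At an unadjusted p under 0.05 were 2, both toward Cy3, beside 21.2% of all named genes. Slc26a7, a chloride and bicarbonate exchanger, had ratios of -2.80, -3.18, -3.53 and -2.73, close together on all 4 arrays. Its mean was -3.06 ± 0.21 (SE, limma adjusted p = 0.00933), or 8.35-fold more signal in Cy3. The adjusted p was 0.0570 without array 1, 0.0641 without array 2 and 0.0705 without array 4. Slc4a2, an anion exchanger of osteoclasts, had -0.74 (limma adjusted p = 0.308), and the sodium bicarbonate cotransporter Slc4a4 had 0.60 (limma adjusted p = 0.354).

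Proton transport genes gave no call. Of 14 measured proton exchangers and proton-coupled transporters limma called 0, with 3 at an unadjusted p under 0.05, all toward Cy5, a share near the 21.2% of all named genes. The endosomal exchanger Slc9a9 had the largest ratio there, 1.80 (limma adjusted p = 0.0856), and passed the threshold after median centring (2.04, adjusted p = 0.0339). Of 22 measured subunits of the vacuolar proton pump limma called 0, with 8 at an unadjusted p under 0.05, 6 toward Cy3 and 2 toward Cy5, also beside 21.2%. The median was -0.21. Atp6v0d2, the membrane-sector subunit that osteoclasts use, lay opposite to most at 2.03 (limma adjusted p = 0.0753) and became a call after median centring (2.20, adjusted p = 0.0394). Atp6v1h, a subunit of the cytosolic sector, had -0.79 (limma adjusted p = 0.118).

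Car9 and Car12 are both induced in hypoxia, and the other hypoxia-induced genes are given beside them. Of 18 measured, 1 was higher in Cy3 and 0 in Cy5, beside 0.857% and 1.26% of all named genes. At an unadjusted p under 0.05 were 2, both toward Cy3, beside 21.2%. The largest ratio was that of Adm, which was not called. It had -2.04, -1.04, -4.16 and -2.12, a mean of -2.34 (limma adjusted p = 0.110). The called gene was Ndrg1, with ratios of -1.18, -0.98, -1.07 and -1.28, a mean of -1.13 ± 0.16 (SE, limma adjusted p = 0.0466). That call was lost with each array left out in turn (adjusted p from 0.0890 to 0.209) and after median centring (-0.52, adjusted p = 0.151). It was lost as well with no background correction, no offset, scale normalization, the software's log ratio, the deposited table and robust eBayes (adjusted p from 0.0511 to 0.0767). Medians of the hypoxia list were 0.83, 0.17, 0.13 and -0.68 on arrays 1 to 4, so array 4 lay opposite to array 1. Hif1a, the factor that drives this response, had a mean of -0.21 (limma adjusted p = 0.731).

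**Figure D5:**
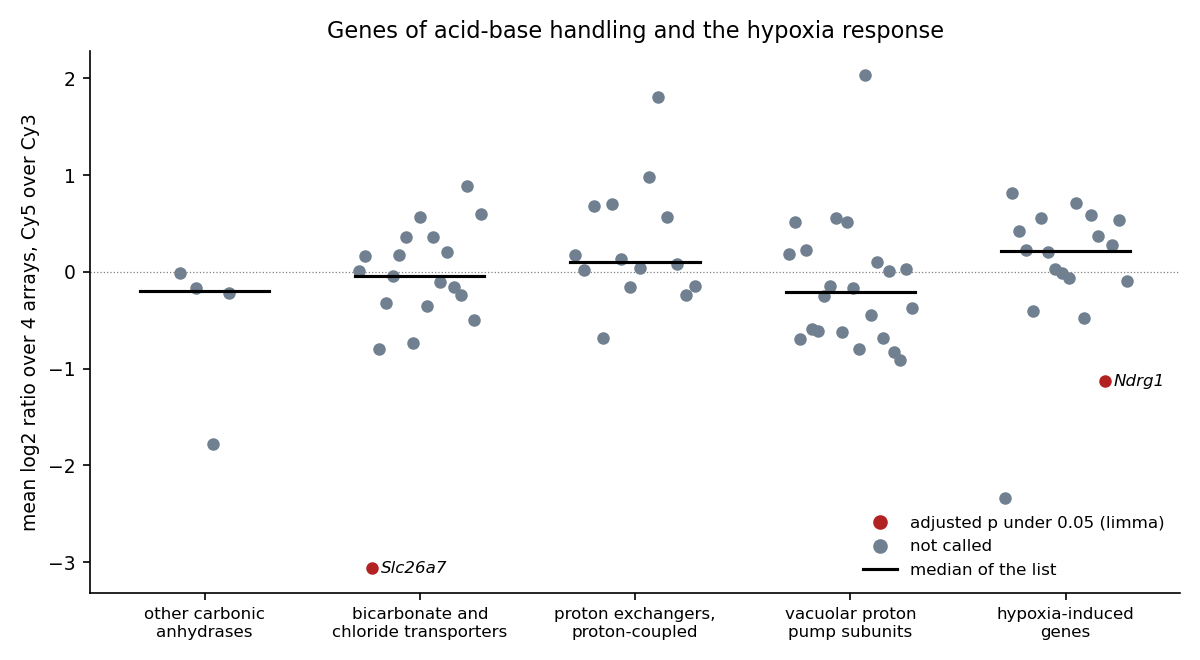
Mean log2 ratio of Cy5 over Cy3 for each measured gene of 5 lists, with red points for genes at a limma adjusted p under 0.05 and bars for list medians. Slc26a7 at -3.06 and Ndrg1 at -1.13 are the 2 called genes, and list medians lie between -0.21 and 0.22.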

How the data were processed

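Per the file headers, the authors' Agilent Feature Extraction 10.7.3.1 files hold mean spot intensity and median local background intensity of both channels for 62976 spots, with probe coordinates on mm9. They also hold the software's log10 ratio, which the deposited value table of the series repeats (99.3% of probes within 0.0001 on a log2 scale on each array, column medians 0). The labels state that 250 ng of each cDNA was labelled. Here limma 3.58.1 (R 4.3.3) corrected background by normexp (offset 50) and normalized within arrays by loess, with 3671 control spots at weight 0. Outlier spots (949) were set to missing, and 0 were saturated. Probes well above background in 1 channel on at least 3 of 4 arrays were kept (44228). Names came from RefSeq accessions (27325 probes, GRCm38.p6), otherwise from the files. A gene's brightest probe represented it, which gave 37356 features, of which 612 were called. The mean ratio was tested against 0 with lmFit and eBayes, two-sided, with Benjamini-Hochberg adjustment. SE of the carbonic anhydrases are SD over arrays divided by the root of n, and those of other genes are limma's. The fit was tested on simulated data. Per the file headers the arrays shared 1 slide, so no batch could be tested. Members, gene lists and naming rules were chosen with earlier results of these data known. Named genes were the members, other carbonic anhydrases, called members of each list (at most 3 per direction), the label checks Dspp, Nes, Ifitm5 and Col1a2, Hif1a and the 3 genes nearest to Car2. Perp, Enam, Klk4, Krt5, Krt14, Epcam, Amelx, Mmp9, Ctsk, Acp5, Slc4a2, Slc4a4, Slc9a9, Atp6v0d2 and Atp6v1h were named after their values were seen. So were Smpd3, Phex, Cpne7, Adm, Sp7, Alpl, Tnnt3, Ckm, Pparg and Fabp4.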

Additional observations from a re-analysis of the deposited data

Results flagged for a closer look

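Among 55 sets of 4 array ratios examined, that of Slc9a9 had 1 array far from the others. Array 2 gave 3.05, against 1.28 to 1.55 on the other 3, and the gap to its nearest neighbour was 0.849 of the whole range. Chance alone sets such a gap in about 1 of 20 groups.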

How the results depend on the processing

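The ratio of Car2 stayed between -6.04 and -5.34 under all 15 alternatives, and between -5.75 and -5.37 with 1 array left out. None of the other 9 carbonic anhydrases was called under any of them. The 612 called features became 2499 with median centring, which put the median gene at 0.20 in place of 0.01, and the share of called genes higher in Cy5 was then 83.0% in place of 59.6%. They became 392 with the software's log ratio and with the deposited value table, and 0 to 240 with 1 array left out (0 without array 1 or array 2, 240 without array 3, 29 without array 4). The 2 calls in the acid-base and hypoxia lists became 4 with median centring, 1 with no background correction, with an offset of 0, with scale normalization, with the software's log ratio, with the deposited table and with robust eBayes, and 0 to 1 with 1 array left out. Ndrg1 was the call lost wherever 1 remained. The cause was not tested. Requiring both channels on all arrays left Car5b, Car6 and Car8 without a value, so signal over background limits their ratios. Each array pairs the 2 RNAs in 1 ratio, so the test of the mean ratio is itself the paired analysis, and no unpaired one was run.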

Other observations

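Car12 and Car15 were compared with other genes after their values had been seen. Among the 15988 named genes that every array measured well above background in Cy3 and in Cy5, the nearest to Car12 were Arl4d, a small GTPase of the ARF-like family (root mean square difference 0.99), the non-coding RNA Fendrr (1.07) and Vwa1, a matrix protein gene (1.10). Fendrr had ratios of -1.31, -1.11, -4.24 and -3.09 (limma adjusted p = 0.126). Car15 lay nearer, at 0.58, but was not well above background in Cy5 on 3 arrays.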
